A study of Arabidopsis thaliana with 8 samples.

Results

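Unstressed leaves of the pif4-2 pif5-3 double mutant of Arabidopsis thaliana were compared with unstressed leaves of the Col-0 wild type by RNA sequencing. The members were the mock-treated libraries of the series, 2 of the mutant and 2 of the wild type, or 4 of 8 in all. The other 4 libraries came from plants of the same genotypes given 5 h at 42 °C and then 3 days of recovery, and they enter here only for the shared estimate of spread and for the comparison with the unstressed difference. All plants were 3 weeks old, grown on soil at 22 °C, and the third and the fourth rosette leaf of each were taken. The labels do not state when the mock leaves were harvested relative to the recovery of the heated ones, or how many plants made up a library. The mutant is in the Col-0 background and is represented by 1 combination of alleles, so a difference carried by that line apart from its mutations in PIF4 and PIF5 cannot be told apart from theirs.

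PHYTOCHROME INTERACTING FACTORs (PIFs) are basic helix-loop-helix (bHLH) transcription factors that accumulate in shade, in darkness and in warmth and are bound and destabilised by light-activated phytochromes. They bind G-box and PBE-box elements in promoters and promote elongation growth, in large part through auxin synthesis, auxin-responsive genes and brassinosteroid action. In leaves, PIF4 and PIF5 are also known as promoters of senescence and as antagonists of chloroplast gene expression.

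Levels are in FPKM, which scales fragments to transcript length and to the size of the library. Of 34354 deposited rows, 16831 genes reached 1 FPKM in at least 2 of the 8 libraries and were tested with limma on log2(FPKM + 1). Calls required an adjusted p under 0.05 (Benjamini-Hochberg, over all 16831 genes). Differences are the mutant minus the wild type, given with their SE in log2 units of FPKM + 1, a scale that shrinks the differences of genes at low FPKM. Library depth, recovered from the steps of the FPKM values, ran from 16852240 to 29535916 reads. The 2 libraries of a group are labelled as biological replicates, and nothing else in the sources used here says that they came from separate plantings.

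The targeted genes came first. PIF4 (AT2G43010) lies at chr2:17886101-17889087 on the forward strand and PIF5 (AT3G59060), which the annotation calls PIL6, at chr3:21827905-21830837 on the reverse strand (TAIR10.1). PIF4 was at 131 and 131 FPKM in the wild type and 33.5 and 33.6 in the mutant. PIF5 was at 63.2 and 66.4 FPKM in the wild type and 5.60 and 4.70 in the mutant. Both genes were far lower in each mutant library than in each wild-type library (log2 change -1.94 ± 0.05, adjusted p = 2.4e-10 for PIF4; log2 change -3.42 ± 0.09, adjusted p = 2.4e-10 for PIF5), and reads of both genes were still present in the mutant. Gene-level FPKM do not show which part of a transcript the remaining reads cover.

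In the unstressed comparison 3479 genes were called, 20.7% of those tested: 2185 were higher in the mutant (13.0%) and 1294 lower (7.69%). These shares are the background for the counts in the gene lists below. At least a 2-fold difference was called for 175 genes (1.04%), 93 of them higher (0.553%) and 82 lower (0.487%). That count was 388 with a pseudocount of 0.1 and 421 with limma-voom on recovered reads. The median over all genes tested was 0.063 on the log2 scale. The estimate of spread was shared with the heated groups, whose replicates lay closer to counting error than those of the mock groups. With the spread taken from the mock libraries alone, limma called 2608 genes, 1535 higher and 1073 lower. With 2 libraries a group, the libraries of the genotypes did not overlap in 10433 genes (62.0%), 6976 higher (41.4%) and 3457 lower (20.5%). The number called depended on single libraries: it was 1781 when wild-type mock replicate 1 was left out and 1836 when mutant mock replicate 2 was. The balance between directions depended on scaling, with 1308 higher and 1795 lower under median-of-ratios scaling, 1380 and 1548 under quantile scaling, and 2592 and 1160 when libraries were scaled to nuclear genes.

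The windows upstream of 4 genes, chosen by the size of their fall, are shown first. They are the genes that fell most among PIF-related bHLH genes and among genes of shade and warmth response that PIFs are known to bind, with the mutated genes themselves set aside. Each window holds the 300 bases before the annotated start of the gene in TAIR10.1, from RefSeq, on the strand of the gene and written 5′ to 3′. Capitals mark the PBE-box (CACATG or its complement CATGTG), and the G-box (CACGTG) would be in capitals too but was not found in these windows.
HFR1: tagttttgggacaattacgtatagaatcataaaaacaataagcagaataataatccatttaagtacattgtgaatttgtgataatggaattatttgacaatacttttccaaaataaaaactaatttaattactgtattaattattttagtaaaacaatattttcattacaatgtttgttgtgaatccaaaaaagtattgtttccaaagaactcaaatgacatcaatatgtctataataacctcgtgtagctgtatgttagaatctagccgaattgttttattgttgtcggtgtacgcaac
IAA29: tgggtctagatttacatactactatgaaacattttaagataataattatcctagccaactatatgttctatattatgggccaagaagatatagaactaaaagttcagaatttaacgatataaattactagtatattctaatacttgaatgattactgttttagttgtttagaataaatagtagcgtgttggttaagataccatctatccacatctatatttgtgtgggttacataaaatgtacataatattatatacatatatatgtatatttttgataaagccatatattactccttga
SAUR22: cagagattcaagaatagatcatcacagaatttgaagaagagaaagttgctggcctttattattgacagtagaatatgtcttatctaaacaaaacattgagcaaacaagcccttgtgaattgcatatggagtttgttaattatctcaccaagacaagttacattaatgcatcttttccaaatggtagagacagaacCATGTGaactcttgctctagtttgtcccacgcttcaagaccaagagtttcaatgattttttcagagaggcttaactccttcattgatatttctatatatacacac
SAUR19: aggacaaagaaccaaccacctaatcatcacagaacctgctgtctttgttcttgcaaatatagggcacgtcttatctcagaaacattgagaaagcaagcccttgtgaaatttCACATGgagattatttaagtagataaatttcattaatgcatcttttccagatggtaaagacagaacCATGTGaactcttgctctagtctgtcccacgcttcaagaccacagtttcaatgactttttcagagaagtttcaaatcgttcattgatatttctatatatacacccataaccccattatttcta
The HFR1 window is chr1:467881-468180 on the reverse strand, and the IAA29 window is chr4:15583032-15583331 on the forward strand. The windows of SAUR22 (chr5:5975088-5975387) and SAUR19 (chr5:5963406-5963705) are both on the reverse strand. The SAUR19 window overlaps an exon of the noncoding RNA AT5G02835 on the opposite strand. SAUR19 held PBE-boxes at 189 to 184 and at 123 to 118 bases before its start, and SAUR22 held one at 105 to 100. The printed windows of HFR1 and IAA29 held neither motif. Within 500 bases before the start HFR1 had 1 PBE-box, SAUR22 1, SAUR19 3 and IAA29 0. No match says only that these letters are not in the window.

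Over 500 bases before the start of all 16367 protein-coding genes tested with such a window, either motif was found in 28.5%, the G-box in 10.4% and the PBE-box in 20.5%. Among the 1263 windows of genes called lower in the mutant, the mutated genes left out, the shares were 36.2%, 14.5% and 26.1%. Among the 2140 windows of genes called higher they were 27.7%, 10.5% and 19.4%. The 73 windows of genes at least 2-fold lower held either motif in 46.6% and the 81 windows of genes at least 2-fold higher in 33.3%. These shares describe letters in sequence and were not tested.

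PIF-related bHLH genes fell more often than they rose. Of 18 measured members, 8 were lower, PIF4 and PIF5 among them, and 1 was higher, with a median log2 difference of -0.26. The largest fall was that of HFR1 (AT1G02340), an atypical bHLH protein that binds PIFs and limits shade responses. HFR1 was at 15.3 and 16.9 FPKM in the wild type and 0.118 and 0 in the mutant. These values rest on 549 and 603 reads in the wild type and on 5 and 0 reads in the mutant, where 3 reads would be worth 0.0959 FPKM in the library with none. The mutant was nearly without this transcript (log2 change -4.01 ± 0.12, adjusted p = 7.0e-10).

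PRE1 (AT5G39860), a small bHLH protein that promotes cell elongation, was at 21.2 and 21.3 FPKM in the wild type and 9.65 and 9.39 in the mutant. BEE1 (AT1G18400), a brassinosteroid-induced bHLH gene, was at 3.32 and 2.58 FPKM in the wild type and 0.507 and 0.547 in the mutant. Both were lower in each mutant library (-1.08 ± 0.11 and -1.36 ± 0.17). Smaller falls were called for HBI1 (-0.23 ± 0.04), BEE3 (-0.52 ± 0.14) and KDR (-0.38 ± 0.12), of which BEE3 (adjusted p = 0.023) and KDR (adjusted p = 0.041) lost their calls without wild-type mock replicate 1, without wild-type mock replicate 2 or without mutant mock replicate 2.

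PIF7 (AT5G61270), another PIF of shade and warmth signalling, moved the other way. It was at 14.6 and 16.3 FPKM in the wild type and 21.7 and 25.0 in the mutant, higher in both mutant libraries (log2 change 0.56 ± 0.08, adjusted p = 3.3e-04). PIF1 was at 14.7 and 14.7 FPKM in the wild type and 15.6 and 15.0 in the mutant and did not pass (adjusted p = 0.68), and PIF3 did not pass either (0.09 ± 0.11, adjusted p = 0.62).

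Genes of shade and warmth response that PIFs are known to bind were lower in 10 of 22 measured members, with 12 not passing and a median of -0.33. The lists overlap: HFR1 is counted here and among PIF-related genes. IAA29 and SAUR22 are among the members counted again in the Aux/IAA and SAUR lists below, so these counts are not separate. IAA29 (AT4G32280), an auxin-responsive repressor of the Aux/IAA family, was at 15.9 and 14.7 FPKM in the wild type and 1.40 and 1.26 in the mutant (log2 change -2.80 ± 0.13, adjusted p = 3.8e-08). SAUR22 (AT5G18050) and SAUR19 (AT5G18010) belong to the SMALL AUXIN UP RNA family, whose proteins promote cell expansion. SAUR22 was at 5.45 and 4.55 FPKM in the wild type and 0.317 and 0.245 in the mutant. SAUR19 was at 5.68 and 4.61 FPKM in the wild type and 0.428 and 0.433 in the mutant. For this pair the mutant libraries lay far below those of the wild type (-2.22 ± 0.13 and -2.10 ± 0.18), and reads of these near-identical neighbours could be shared between them. Lower levels were also called for IAA19 (-1.26 ± 0.15), for the shade-responsive homeodomain genes HAT1 (-0.76 ± 0.08), HAT2 (-0.48 ± 0.08) and ATHB-2 (-0.35 ± 0.08), and for the auxin efflux carrier PIN3 (-0.56 ± 0.06). Leaving out either wild-type mock replicate 1 or mutant mock replicate 2 ended the ATHB-2 call. The auxin synthesis genes TAA1 (0.13 ± 0.11, adjusted p = 0.44) and YUC2 (-0.31 ± 0.13, adjusted p = 0.12) did not pass. YUC5, YUC8 and YUC9 of this list were below 1 FPKM and were not tested. YUC8 was at 0.714 and 0.808 FPKM in the wild type and 0.176 and 0.237 in the mutant. YUC9 was at 0.121 and 0.170 FPKM in the wild type and 0 and 0 in the mutant. YUC5 was at 0.044 and 0.022 FPKM in the wild type and 0.019 and 0 in the mutant.

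**Figure D1:**
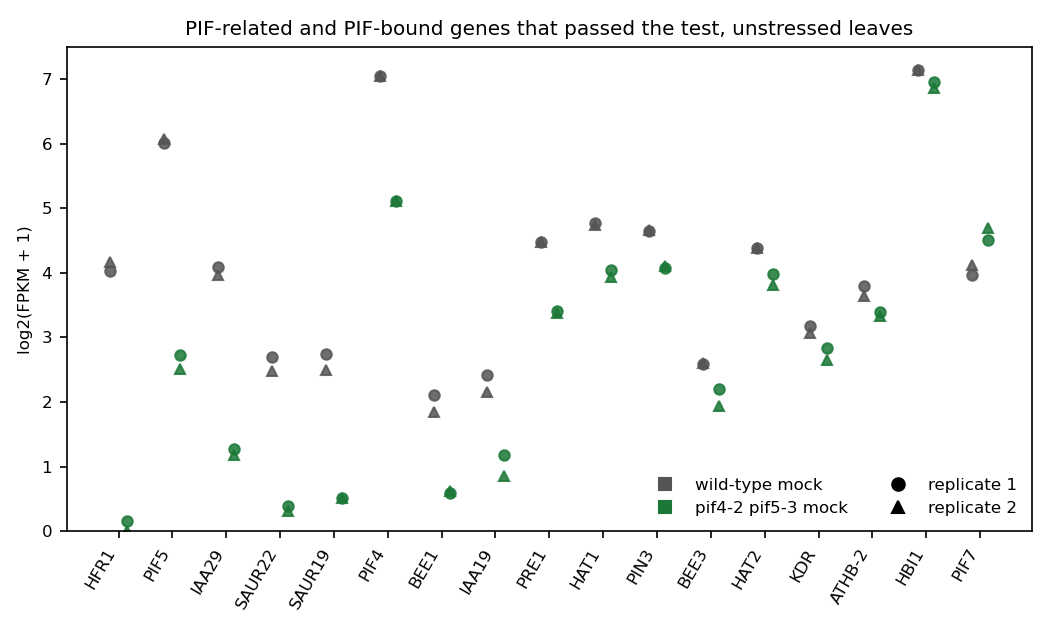
Level on the log2(FPKM + 1) scale (vertical axis) of the PIF-related and PIF-bound genes that passed the test, for the wild-type mock (grey) and mutant mock (green) libraries, ordered by the size of the difference; circles are replicate 1 and triangles replicate 2. HFR1 falls from 15.3 and 16.9 FPKM to 0.118 and 0, and PIF7, at the right, is the gene that is higher in the mutant.

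Photoreceptor and light signalling genes were called in 6 of 30 measured members, close to the 20.7% over all genes. Of them 5 were lower and 1 higher, with a median of -0.0114, and the 1 that was higher lost its call without wild-type mock replicate 1 or mutant mock replicate 2 and under median-of-ratios or quantile scaling. PKS2 (AT1G14280), a phytochrome kinase substrate that acts in leaf positioning and phototropism, was at 45.0 and 41.5 FPKM in the wild type and 22.1 and 21.2 in the mutant (log2 change -0.96 ± 0.06, adjusted p = 6.3e-07). The B-box genes BBX22, BBX28 and BBX24 fell by less (-0.36 ± 0.05, -0.36 ± 0.06 and -0.30 ± 0.05), and SPA1, a partner of the COP1 ubiquitin ligase, lost its call without mutant mock replicate 2 (-0.25 ± 0.05).

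Auxin and growth genes were lower in the mutant across several families. Aux/IAA genes, whose proteins repress auxin responses and are themselves induced by auxin, gave 12 lower calls and 1 higher among 22 members. SAUR genes, 34 of them measured, gave 19 lower and 5 higher calls, with a median of -0.44. Their differences ran from -2.22 to 0.97. With 1 mock library left out the SAUR median was -0.33 to -0.47, and fewer were called in each direction in each case. AXR3 (AT1G04250), also known as IAA17, was at 16.5 and 14.1 FPKM in the wild type and 6.71 and 7.42 in the mutant (log2 change -1.01 ± 0.10, adjusted p = 1.7e-05). SHY2 (AT1G04240), also known as IAA3, was at 17.0 and 15.5 FPKM in the wild type and 7.85 and 6.64 in the mutant (log2 change -1.07 ± 0.13, adjusted p = 1.5e-04). In the SAUR cluster on chromosome 5, SAUR20 (-1.28 ± 0.10), SAUR21 (-1.33 ± 0.08) and SAUR23 (-1.64 ± 0.13) fell beside SAUR19 and SAUR22. Reads of these neighbouring SAUR genes could be shared between them, so their falls are not separate. Without wild-type mock replicate 1 or without mutant mock replicate 2, 8 Aux/IAA genes were called lower and 0 higher, and 0 were higher without mutant mock replicate 1.

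Genes of auxin synthesis, transport and conjugation were lower in 8 and higher in 1 of 26, with a median of -0.07. With 1 mock library left out that median was -0.06 to -0.11, and fewer were called lower in each case. NIT1 (AT3G44310), a nitrilase gene and the most abundant transcript of this list, was at 604 and 581 FPKM in the wild type and 243 and 239.6 in the mutant. The mutant held well under the wild-type level in each library (log2 change -1.29 ± 0.04, adjusted p = 6.2e-10). The auxin influx carrier AUX1 (-0.65 ± 0.06), the efflux carrier PIN7 (-0.41 ± 0.05) and the GH3-family conjugating enzyme gene DFL2 (-0.54 ± 0.06) fell as well.

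Wall-loosening enzymes followed. Of 30 measured expansin and xyloglucan endotransglucosylase (XTH) genes, 18 were lower and 12 did not pass, with a median of -0.37. With 1 mock library left out the median was -0.35 to -0.51. Fewer were called lower without wild-type mock replicate 1 or mutant mock replicate 2. TCH4 (AT5G57560), a touch- and brassinosteroid-induced XTH, was at 49.3 and 46.4 FPKM in the wild type and 18.5 and 16.4 in the mutant (log2 change -1.40 ± 0.09, adjusted p = 9.2e-07). EXLA1 (AT3G45970), an expansin-like gene, was at 90.3 and 83.7 FPKM in the wild type and 40.5 and 36.0 in the mutant (log2 change -1.17 ± 0.07, adjusted p = 2.9e-07). XTH6 (-0.95 ± 0.07) and XTH7 (-0.91 ± 0.07) also fell.

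Brassinosteroid and gibberellin genes split, with 7 lower and 3 higher of 27, and under median-of-ratios or quantile scaling 12 lower and 1 higher. Leaving out any 1 of the 4 mock libraries left 1 higher. BR6OX2 (AT3G30180), which encodes the enzyme of the last steps of brassinolide synthesis, was at 27.2 and 29.1 FPKM in the wild type and 12.6 and 11.9 in the mutant (log2 change -1.14 ± 0.08, adjusted p = 9.6e-07). CPD, an earlier enzyme of the pathway, fell by less (-0.64 ± 0.05), as did the receptor gene BRI1 (-0.39 ± 0.05) and the DELLA gene RGA1 (-0.34 ± 0.06).

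Cuticle and lipid transfer genes, 16 of them measured, gave 8 lower and 2 higher calls, and 1 was higher when either wild-type mock library or mutant mock replicate 1 was left out. LTP1 (AT2G38540), a lipid transfer protein gene, was at 324 and 292 FPKM in the wild type and 156 and 144 in the mutant (log2 change -1.03 ± 0.06, adjusted p = 5.3e-07). The fatty acid elongase gene KCS1 (-1.05 ± 0.09), LTPG1 (-0.89 ± 0.08) and CER6 (-0.38 ± 0.04) fell too. LTP3 was 1 of the 2 members called higher: it was at 0.260 and 0.468 FPKM in the wild type and 3.57 and 2.79 in the mutant, higher in both mutant libraries (1.61 ± 0.14).

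Immune and defence lists held many genes that were higher in the mutant. Salicylic acid genes were higher in 19 of 31 members, with 12 not passing and a median of 0.38. With 1 mock library left out that median was 0.29 to 0.44, and fewer were called higher in each case. Immune receptor and pattern-triggered signalling genes, 46 of them measured, gave 23 higher and 2 lower calls, and 27 WRKY transcription factor genes gave 17 and 2 (median 0.45). Fewer immune receptor genes were called higher without wild-type mock replicate 1 or either mutant mock replicate. Without wild-type mock replicate 1, 11 WRKY genes were called higher and 1 lower, and 1 was lower without either mutant mock library.

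BGL2 (AT3G57260), the PR2 glucanase and a marker of salicylic acid responses, was at 67.9 and 74.3 FPKM in the wild type and 209 and 224 in the mutant (log2 change 1.60 ± 0.05, adjusted p = 2.2e-09). PR5 (AT1G75040), a thaumatin-like protein gene, was at 24.5 and 25.8 FPKM in the wild type and 78.6 and 73.4 in the mutant (log2 change 1.56 ± 0.05, adjusted p = 3.1e-09). DMR6 (AT5G24530), an oxygenase that hydroxylates salicylic acid, was at 51.0 and 56.0 FPKM in the wild type and 90.0 and 94.6 in the mutant (log2 change 0.78 ± 0.05, adjusted p = 8.9e-07). In these genes each mutant library was above each wild-type library. ICS2 (AT1G18870), an isochorismate synthase gene outside the salicylic acid list and picked after its values were seen, was lower in the mutant. It was at 2.07 and 2.10 FPKM in the wild type and 0.533 and 0.455 in the mutant (log2 change -1.05 ± 0.13, adjusted p = 1.2e-04).

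Among receptors, the cysteine-rich receptor-like kinase gene CRK4 (AT3G45860) was at 29.6 and 32.3 FPKM in the wild type and 74.4 and 79.6 in the mutant (log2 change 1.29 ± 0.06, adjusted p = 2.3e-08). RLP23 (AT2G32680), the receptor-like protein that recognises a peptide of microbial NLP proteins, was at 13.1 and 15.3 FPKM in the wild type and 28.2 and 31.3 in the mutant (log2 change 1.02 ± 0.08, adjusted p = 3.6e-06). CRK6 (1.06 ± 0.08), CRK7 (0.85 ± 0.09) and the helper immune receptor gene ADR1 (0.76 ± 0.08) rose as well. Among WRKY factors, WRKY40 (AT1G80840) was at 6.30 and 7.70 FPKM in the wild type and 18.7 and 18.4 in the mutant (log2 change 1.29 ± 0.10, adjusted p = 3.0e-06), and WRKY18 (1.02 ± 0.07), WRKY51 (1.14 ± 0.10), WRKY54 (0.57 ± 0.06) and WRKY26 (0.55 ± 0.06) rose too.

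Jasmonate genes, 35 of them measured, gave 21 higher and 1 lower calls, with a median of 0.23. Median-of-ratios scaling gave 17 higher and 3 lower, and quantile scaling 20 and 3. With 1 mock library left out the median was 0.20 to 0.32. Fewer were called higher without wild-type mock replicate 1 or either mutant mock replicate. TAT3 (AT2G24850), a tyrosine aminotransferase gene of the jasmonate response, was at 10.9 and 14.1 FPKM in the wild type and 47.3 and 48.7 in the mutant (log2 change 1.87 ± 0.09, adjusted p = 4.5e-08). ORA59 (AT1G06160), an ERF factor that joins jasmonate and ethylene signals, was at 6.21 and 4.97 FPKM in the wild type and 14.6 and 14.6 in the mutant (log2 change 1.25 ± 0.09, adjusted p = 2.1e-06). The ethylene list was split, with 5 higher and 6 lower of 23: the response factors ERF2 (0.71 ± 0.05) and ERF4 (0.53 ± 0.06) rose, while the signalling factors EIN3 (-0.22 ± 0.05) and EIL1 (-0.30 ± 0.05) and the ACC oxidase gene ACO4 (-0.27 ± 0.05) fell. Without wild-type mock replicate 1 or without mutant mock replicate 2 the ethylene list had 2 higher and 3 lower, under median-of-ratios scaling 3 and 6 and under quantile scaling 3 and 5, and EIN3 did not pass without the intensity trend.

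Glucosinolate and camalexin genes, 34 of them measured, gave 13 higher and 2 lower calls. Fewer were called higher without wild-type mock replicate 1 or either mutant mock replicate. IGMT1 (AT1G21100), an indole glucosinolate methyltransferase gene, was at 28.6 and 28.8 FPKM in the wild type and 59.0 and 56.6 in the mutant (log2 change 0.98 ± 0.06, adjusted p = 5.8e-07). The camalexin genes PAD3 (0.95 ± 0.09) and CYP71A12 (0.78 ± 0.10) rose from low levels. TGG2 (AT5G25980), a myrosinase that cleaves glucosinolates, was at 275 and 266 FPKM in the wild type and 142 and 156 in the mutant (log2 change -0.86 ± 0.06, adjusted p = 2.2e-06), lower in the mutant.

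Antioxidant and detoxification genes, 31 of them measured, gave 10 higher and 5 lower calls, or 9 and 9 under median-of-ratios scaling, 6 and 4 without wild-type mock replicate 1, and 9 and 3 without mutant mock replicate 2. The glutathione transferase genes GSTF6 (0.61 ± 0.05), GSTF7 (0.53 ± 0.07) and GSTU4 (0.74 ± 0.08) rose, as did the cytosolic ascorbate peroxidase APX1 (0.37 ± 0.04) and the alternative oxidase gene AOX1D (1.03 ± 0.12). Reads of GSTF6 and GSTF7, which lie side by side and are close copies, could be shared.

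Cold, dehydration and abscisic acid responsive genes formed another block that was lower: 25 of 44 members fell and 3 rose, with a median of -0.36. With 1 mock library left out the median was -0.26 to -0.44, and fewer were called lower in each case. GolS2 (AT1G56600), a galactinol synthase that makes a precursor of raffinose sugars, was at 30.8 and 32.3 FPKM in the wild type and 6.70 and 6.59 in the mutant (log2 change -2.09 ± 0.07, adjusted p = 3.3e-09). RD20 (AT2G33380), a caleosin gene, was at 20.3 and 18.7 FPKM in the wild type and 4.61 and 4.95 in the mutant (log2 change -1.83 ± 0.08, adjusted p = 3.4e-08). COR413IM1 (AT1G29395), a cold-regulated chloroplast membrane protein gene, was at 301 and 287 FPKM in the wild type and 126 and 126 in the mutant (log2 change -1.21 ± 0.05, adjusted p = 5.4e-09). COR78 (AT5G52310), also known as RD29A, was at 105 and 123 FPKM in the wild type and 38.5 and 43.8 in the mutant, with the libraries of the genotypes well apart (-1.45 ± 0.08). The largest rise of the list was that of RHL41 (AT5G59820). RHL41 was at 7.90 and 7.18 FPKM in the wild type and 17.4 and 17.6 in the mutant (1.12 ± 0.09).

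**Figure D2:**
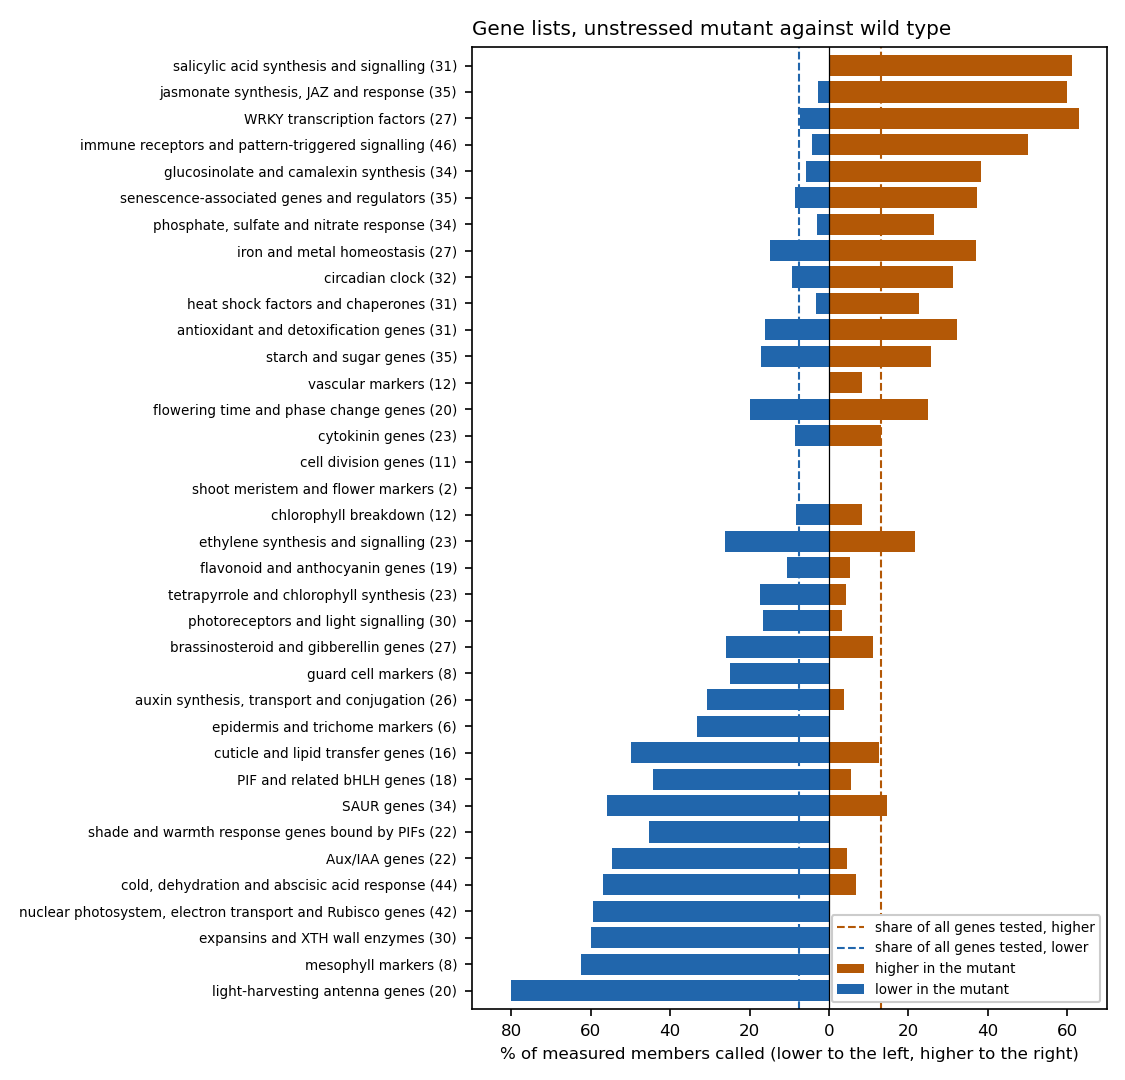
Share of the measured members of each of 36 gene lists (number measured in parentheses) called higher (orange, to the right) or lower (blue, to the left) in the unstressed mutant; dashed lines mark the shares over all genes tested, 13.0% and 7.69%. Antenna, wall enzyme, cold and auxin lists reach far to the left, and salicylic acid, jasmonate, WRKY and immune receptor lists far to the right.

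Nuclear photosynthesis genes were lower by small amounts. Light-harvesting antenna genes fell in 16 of 20 members (median -0.23), and photosystem, electron transport and Rubisco genes in 25 of 42 (median -0.17). With 1 mock library left out the antenna median was -0.19 to -0.28. Fewer antenna genes were called lower without wild-type mock replicate 1 or either mutant mock replicate. LHCB2.3 (AT3G27690), an antenna protein gene of photosystem II, was at 285 and 266 FPKM in the wild type and 148 and 147 in the mutant (log2 change -0.89 ± 0.04, adjusted p = 7.4e-08). LHCB2.2 (AT2G05070) was at 2314 and 2201 FPKM in the wild type and 1557 and 1499 in the mutant (-0.56 ± 0.04). Smaller falls were called for the photosystem I gene PSAH2 (-0.31 ± 0.05), the photosystem II gene PSBW (-0.29 ± 0.04) and the carbonic anhydrase gene CA1 (-0.28 ± 0.04). Reads of near-identical LHCB and RBCS copies could be shared.

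The photosynthesis counts moved with the processing. With the spread taken from the mock libraries alone, 10 antenna genes and 13 of the photosystem list were called lower, and CAB3 and GAPB did not pass. Without the intensity trend the lower counts were 10 and 11. Under quantile scaling 9 antenna genes were lower and 1 higher (median -0.11), 15 of the photosystem list were lower and 2 higher (median -0.076), and the calls of LHCB3, RBCS2B, CAB3 and GAPB were lost. The photosystem list had 14 lower with wild-type mock replicate 1 left out and 15 with mutant mock replicate 2 left out. Of tetrapyrrole and chlorophyll synthesis genes 4 of 23 were lower and 1 higher, which is 21.7%, but 11 were lower under median-of-ratios scaling. GLK2 (AT5G44190), a transcription factor gene that activates photosynthesis genes, was at 106 and 103 FPKM in the wild type and 66.4 and 64.8 in the mutant (log2 change -0.66 ± 0.04, adjusted p = 8.4e-07), and its partner GLK1 fell by less (-0.21 ± 0.04). Of 12 chlorophyll breakdown genes 1 was lower, CYP89A9 (-0.54 ± 0.06), and 1 higher, HCAR (0.39 ± 0.06), which is 16.7% against 20.7% over all genes, and 5 were lower under median-of-ratios and 3 under quantile scaling.

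Senescence-associated genes and regulators were higher in 13 and lower in 3 of 35, with a median of 0.094 against 0.063 over all genes. Leaving out wild-type mock replicate 1 gave 7 higher and 1 lower, leaving out mutant mock replicate 1 gave 7 and 2, and quantile scaling gave 8 and 4. BCB (AT5G20230), a blue copper protein gene also known as SAG14, was at 28.1 and 31.3 FPKM in the wild type and 47.9 and 49.9 in the mutant (log2 change 0.70 ± 0.06, adjusted p = 4.3e-06). NAC016 (AT1G34180), a NAC factor that promotes senescence, was at 0.948 and 0.908 FPKM in the wild type and 2.96 and 2.89 in the mutant (log2 change 1.03 ± 0.12, adjusted p = 1.0e-04). SAG13 was at 4.38 and 6.55 FPKM in the wild type and 10.1 and 9.32 in the mutant, higher in both mutant libraries but low in all 4 (0.75 ± 0.12).

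Of 31 heat shock factor and chaperone genes 7 were higher and 1 lower, or 25.8% called against 20.7% over all genes. The lower call did not hold with any 1 mock library left out. The endoplasmic reticulum chaperone genes stood out for their spread. BIP2 (AT5G42020) was at 21.3 and 29.6 FPKM in the wild type and 42.9 and 53.3 in the mutant (0.90 ± 0.12), and BIP1 was at 37.2 and 50.1 FPKM in the wild type and 63.6 and 80.7 in the mutant (0.72 ± 0.12). Replicate 2 lay above replicate 1 in both genotypes for this pair, and the genotypes did not overlap. BIP1 and BIP2 are close copies whose reads could be shared. HSFB1 (AT4G36990), a heat shock factor that acts as a repressor, was at 9.83 and 10.5 FPKM in the wild type and 15.3 and 15.2 in the mutant (log2 change 0.54 ± 0.06, adjusted p = 8.8e-05).

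Clock genes, 32 of them measured, gave 10 higher and 3 lower calls, or 7 and 7 under median-of-ratios scaling and 8 and 5 without mutant mock replicate 1. TOC1, an evening repressor, was at 72.8 and 75.5 FPKM in the wild type and 91.1 and 93.6 in the mutant (log2 change 0.31 ± 0.05, adjusted p = 5.1e-04), and LUX of the evening complex rose by a like amount (0.36 ± 0.06). Iron and metal homeostasis genes, 27 of them measured, gave 10 higher and 4 lower calls, but 4 were higher under median-of-ratios or quantile scaling and between 4 and 6 when 1 mock library was left out, with 2 to 4 lower. The ferric reductase genes FRO6 (-0.53 ± 0.04) and FRO7 (-0.42 ± 0.05) fell, and the metal transporter gene YSL3 rose (0.56 ± 0.06). The shares called were 40.6% for clock and 51.9% for iron and metal genes, against 20.7% over all genes. For phosphate, sulfate and nitrate genes, counted next, the share was 29.4%. Of 34 phosphate, sulfate and nitrate genes 9 were higher and 1 lower (0 without wild-type mock replicate 1 or mutant mock replicate 2), among the higher ones the nitrate transporter NRT1.1 (0.61 ± 0.05) and the nitrate reductases NIA1 (0.49 ± 0.09) and NIA2 (0.32 ± 0.05).

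Starch and sugar genes, 35 of them measured, gave 9 higher and 6 lower calls, 6 and 3 without wild-type mock replicate 1, and with the balance turned 6 and 8 under median-of-ratios and 6 and 7 under quantile scaling. The extreme was QQS (AT3G30720), a small gene without known relatives outside Arabidopsis thaliana that affects carbon and nitrogen allocation. It was at 4.80 and 5.13 FPKM in the wild type and 44.9 and 46.7 in the mutant. The mutant libraries were far above those of the wild type (log2 change 2.97 ± 0.08, adjusted p = 3.0e-10). The sucrose exporter genes SWEET11 (0.60 ± 0.04) and SWEET12 (0.61 ± 0.04) rose, and the plastid glucose phosphate carrier GPT2 was at 0.741 and 0.882 FPKM in the wild type and 2.51 and 2.75 in the mutant (1.0 ± 0.12). The share of starch and sugar genes called was 42.9%, against 20.7% over all genes.

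Flowering time genes, 20 of them measured, gave 5 higher and 4 lower calls, 4 and 5 under median-of-ratios scaling, 3 and 3 under quantile scaling, 5 and 2 with a pseudocount of 0.1, and 2 or 3 and 1 to 3 when 1 mock library was left out. MAF5 (AT5G65080), a MADS-box gene of the FLC clade, was at 17.0 and 15.3 FPKM in the wild type and 0.983 and 0.843 in the mutant. It was nearly lost from the mutant (log2 change -3.16 ± 0.13, adjusted p = 1.8e-08). The floral repressors TEM1 (0.55 ± 0.05) and TEM2 (0.53 ± 0.07) rose. The share of flowering time genes called was 45.0%, against 20.7% over all genes. Of 23 cytokinin genes 3 were higher and 2 lower, or 21.7% against 20.7% over all genes, and fewer were called with any 1 mock library left out. Under median-of-ratios or quantile scaling 2 cytokinin genes were higher and 4 lower. Of 19 flavonoid genes 1 was higher and 2 lower, or 15.8% against 20.7% over all genes. The higher count rose when either wild-type mock library was left out. TT4, the chalcone synthase gene that opens flavonoid synthesis, was at 1.62 and 1.53 FPKM in the wild type and 0.338 and 0.563 in the mutant (-0.83 ± 0.14).

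Outside the lists, the largest rise among genes with a symbol was that of CML41 (AT3G50770), a calmodulin-like protein gene. CML41 was at 12.2 and 11.6 FPKM in the wild type and 76.6 and 75.7 in the mutant (log2 change 2.58 ± 0.06, adjusted p = 2.2e-10). CAX3 (AT3G51860), a vacuolar cation exchanger gene, was at 18.8 and 17.9 FPKM in the wild type and 73.8 and 78.1 in the mutant (log2 change 1.99 ± 0.06, adjusted p = 6.2e-10). MDHAR (AT3G09940), a monodehydroascorbate reductase gene, was at 2.21 and 2.11 FPKM in the wild type and 14.9 and 15.3 in the mutant (log2 change 2.35 ± 0.08, adjusted p = 4.1e-09).

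All 3 were several-fold higher in each mutant library. They were followed by the ethylene response factor ERF13 (1.57 ± 0.12), the methionine sulfoxide reductase MSRB9 (1.41 ± 0.10), DR4 (1.38 ± 0.10), MEE3 (1.38 ± 0.13), the acyltransferase AACT1 (1.36 ± 0.14), AIG1 (1.35 ± 0.11), PCR2 (1.21 ± 0.09), the chitinase gene CHI (1.20 ± 0.06) and CIP1 (1.17 ± 0.24). CIP1 was at 13.2 and 25.1 FPKM in the wild type and 32.9 and 54.3 in the mutant, with replicate 2 above replicate 1 in both genotypes, and its call was lost without mutant mock replicate 2.

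Among genes with a symbol outside the lists, the largest fall was that of ELI3-1 (AT4G37980), a cinnamyl alcohol dehydrogenase family gene. It was at 139 and 132 FPKM in the wild type and 30.8 and 26.6 in the mutant (log2 change -2.20 ± 0.06, adjusted p = 6.2e-10). ESM1 (AT3G14210), which favours isothiocyanate formation when glucosinolates are cleaved, was at 395 and 375 FPKM in the wild type and 156 and 156 in the mutant (log2 change -1.30 ± 0.05, adjusted p = 4.3e-09). PHI-1, a phosphate-responsive family gene of the EXORDIUM type, was at 14.9 and 14.4 FPKM in the wild type and 2.95 and 3.68 in the mutant (-1.86 ± 0.12).

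These genes were lower in each mutant library. Others of this set were its relative EXO (-1.38 ± 0.14), the terpene synthase TPS03 (-1.81 ± 0.11), the 6-phosphogluconolactonase family gene PGL2 (-1.80 ± 0.14), the AP2/ERF-type genes ESE3 (-1.75 ± 0.10) and DREB26 (-1.35 ± 0.12), the thionin THI2.2 (-1.74 ± 0.10), BGAL8 (-1.43 ± 0.09), RTFL16 (-1.34 ± 0.07) and HIPP25 (-1.34 ± 0.12).

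Markers of cell types that these leaves could hold were counted in the same way. The shares called were 62.5% for mesophyll, 25.0% for guard cell, 33.3% for epidermis and trichome and 8.3% for vascular markers. Over all genes the share was 20.7%. Of 8 measured mesophyll markers 5 were lower, and their summed level ran from 18673.3 to 19179.8 FPKM in the wild type and from 15883.1 to 16351.9 in the mutant. Their median log2 difference was -0.20 as deposited and 0.0 under quantile scaling. Of 8 guard cell markers 2 were lower, with sums of 1080.2 and 1081.7 against 902.2 and 903.8, of which the myrosinase TGG1 made up most, at 1048 and 1051 FPKM in the wild type and 871 and 870.4 in the mutant. The count of guard cell markers was 1 without either wild-type mock library or mutant mock replicate 2. Of 6 epidermis and trichome markers 2 were lower, with sums of 345.6 and 345.7 against 275.5 and 275.9. Of 12 vascular markers 1 was higher, SWEET11, with sums of 831.8 and 838.5 against 934.9 and 955.4.

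Shoot meristem and flower markers and cell division genes had low values. None of 2 and of 11 measured members was called by limma, at an unadjusted p below 0.05 the counts were 0 and 0, and by limma-voom 0 and 0. Their sums were 1.8 to 2.1 FPKM for meristem and flower markers and 38.4 to 43.1 for division genes over both genotypes, and WUS, CLV3, CUC2, CUC3 and LFY were listed at 0 in all 4 mock libraries. MYC2, a jasmonate signalling gene, and the antenna gene LHB1B2 were listed at 0 in all 8 libraries too, so a 0 in the deposited values need not mean that a transcript was absent. In bulk leaves, fewer cells of a type and less RNA per cell cannot be told apart. The part of the cell type makeup in the lists above was not tested.

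The loci beside the mutated genes were taken as values. Around PIF4, of the 5 measured loci on each side, AT2G42975 (-0.49 ± 0.09) and AT2G43030 (-0.16 ± 0.04) were called lower and the other 8 did not pass. Around PIF5, PAO3 (AT3G59050), a polyamine oxidase gene that is the next measured locus, was at 20.2 and 20.4 FPKM in the wild type and 13.9 and 12.6 in the mutant (log2 change -0.58 ± 0.07, adjusted p = 1.4e-04), and it was lower after heat as well (-0.88 ± 0.07, adjusted p = 2.1e-06). The other 9 loci around PIF5 did not pass under mock. Whether reads that run past a neighbouring gene take part in these values was not tested.

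The same comparison in plants that had been heated shares no library with the unstressed one. There 4814 genes were called (28.6%), 1855 higher (11.0%) and 2959 lower (17.6%), with 3171 called without wild-type heat replicate 1. At least 2-fold differences were called for 549 genes (3.26%), 95 higher (0.564%) and 454 lower (2.70%). The difference between the comparisons, the interaction of genotype and heat, was called for 5371 genes (31.9%), positive in 1732 (10.3%) and negative in 3639 (21.6%), and with at least 2-fold for 783 (4.65%), 174 positive (1.03%) and 609 negative (3.62%). Here too the balance moved with scaling: median-of-ratios scaling gave 2334 higher and 2488 lower after heat, quantile scaling 2681 and 2207, and the nuclear sum 1428 and 3733. The interaction was positive in 2386 and negative in 2466 genes, in 2470 and 2248, and in 1342 and 4770 under the same scalings. Of the 2185 genes higher in the unstressed mutant, 345 were also higher after heat, which is 15.8% of the unstressed and 18.6% of the heat list, and 572 were lower. Of the 1294 lower genes, 328 were also lower after heat, 25.3% and 11.1% of these lists, and 316 were higher. Across all genes tested the differences hardly ran together (Pearson 0.047, Spearman -0.107, 16831 genes, which are not independent).

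Among the genes at least 2-fold higher in the unstressed mutant, 41 of 93 were higher after heat, 30 lower and 22 not called, and their median went from 1.24 to 0.0995. Of the 82 at least 2-fold lower, 44 were lower after heat, 12 higher and 26 not called, and their median went from -1.32 to -0.40. The interaction was called for 75 of the former and 62 of the latter.

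PR1 was among the genes that turned. It was at 17.6 and 24.7 FPKM in the wild type and 72.2 and 68.3 in the mutant without heat and at 394 and 402 FPKM in the wild type and 117 and 119 in the mutant after it, so that the mutant went from above to below the wild type (interaction -3.45 ± 0.15, adjusted p = 1.4e-08). CHI was at 142 and 148 FPKM in the wild type and 37.7 and 39.8 in the mutant after heat (interaction -3.08 ± 0.09, adjusted p = 9.6e-10), against 9.78 and 11.2 FPKM in the wild type and 25.4 and 25.3 in the mutant without it. CML41 kept its direction, at 107 and 122 FPKM in the wild type and 148 and 159 in the mutant after heat, with a smaller difference (0.42 ± 0.06, adjusted p = 3.3e-04).

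WRKY40 rose in the mutant in both conditions, to 7.42 and 7.28 FPKM in the wild type and 41.1 and 34.0 in the mutant after heat (2.20 ± 0.10, adjusted p = 1.1e-08). TCH4 turned the other way and was at 9.72 and 11.6 FPKM in the wild type and 44.1 and 37.7 in the mutant after heat (interaction 3.25 ± 0.13, adjusted p = 1.1e-08). RD20 kept its direction and widened, at 86.1 and 99.9 FPKM in the wild type and 5.79 and 5.74 in the mutant (-3.79 ± 0.08, adjusted p = 2.4e-11).

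Antenna genes, lower in 16 of 20 without heat, were higher in 17 and lower in 1 after it. Salicylic acid genes had 7 higher and 7 lower of 31 after heat, and Aux/IAA genes 10 higher and 1 lower of 22. Cold, dehydration and abscisic acid genes had 7 higher and 28 lower of 44 after heat, against 3 and 25 without it. In the shade and warmth list 6 were higher and 5 lower of 22. Over all genes tested 11.0% were higher and 17.6% lower after heat.

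**Figure D3:**
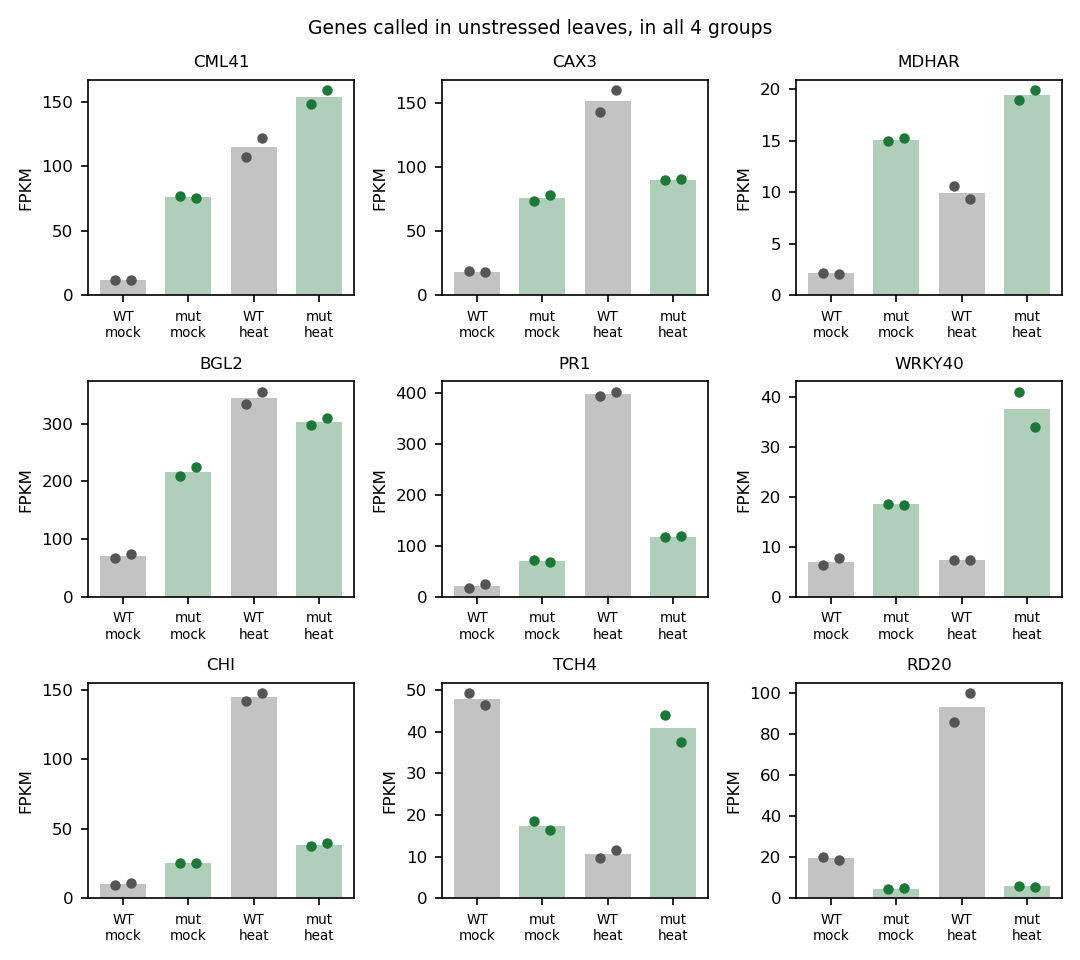
FPKM (vertical axes, each from 0) of 9 genes in the 4 groups, wild type (WT, grey) and pif4-2 pif5-3 (mut, green), mock and after heat; points are the 2 libraries of a group and bars their mean. CML41, MDHAR and WRKY40 are higher in the mutant in both conditions, RD20 is lower in both, and PR1, CHI, CAX3, BGL2 and TCH4 change sides after heat.

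**Figure D4:**
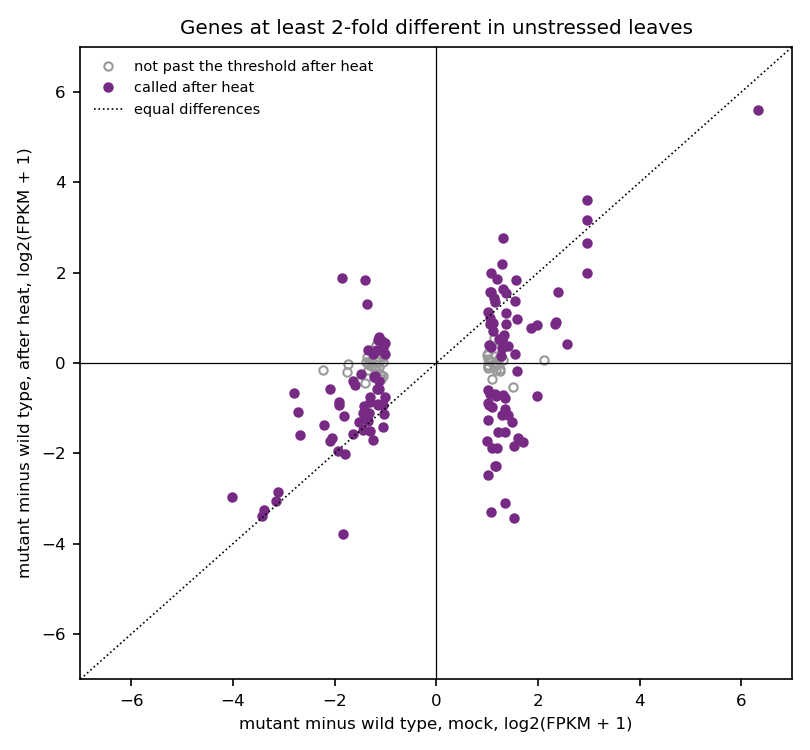
Mutant minus wild type on the log2(FPKM + 1) scale under mock (horizontal axis) and after heat (vertical axis) for the 175 genes called with at least a 2-fold difference under mock; filled points were called after heat, open points were not, and the dotted line marks equal differences. Points near the line are genes whose difference was alike in both conditions, and those in the upper left and lower right quadrants changed direction.

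Some loci differed strongly between the genotypes both with and without heat. Of 23 genes called under mock with at least a 4-fold difference, 9 also had at least 4-fold in the same direction after heat, a count made after the values were seen. PIF5, HFR1 and MAF5 are among them, and MAF5 was at 16.5 and 17.1 FPKM in the wild type and 0.845 and 1.49 in the mutant after heat, with no difference between the conditions past the threshold (interaction 0.11 ± 0.19, adjusted p = 0.7). The others carry no gene symbol. AT3G06955, annotated as a long noncoding RNA (chr3:16498192-16498394, TAIR10.1), was at 0.590 and 0.197 FPKM in the wild type and 115 and 104 in the mutant. It rested on 3 and 1 reads in the wild type and on 689 and 464 in the mutant, the largest rise of all genes tested (6.32 ± 0.12 under mock and 5.59 ± 0.12 after heat).

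AT4G05275, also annotated as a long noncoding RNA, was listed at 0 in both wild-type mock libraries and at 7.87 and 5.87 FPKM in the mutant ones, where 56 and 31 reads lay behind it. At the depth of the wild-type libraries, 3 reads would have been worth 0.497 and 0.498 FPKM. AT1G75945 was at 0.693 and 0.608 FPKM in the wild type and 14.5 and 9.71 in the mutant. In the other direction, the long noncoding RNA AT3G05945 was at 103 and 96.1 FPKM in the wild type and 9.25 and 7.92 in the mutant, and AT3G06355 was at 18.4 and 22.9 FPKM in the wild type and 1.35 and 1.64 in the mutant. All of these groups were far apart in both conditions.

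**Figure D5:**
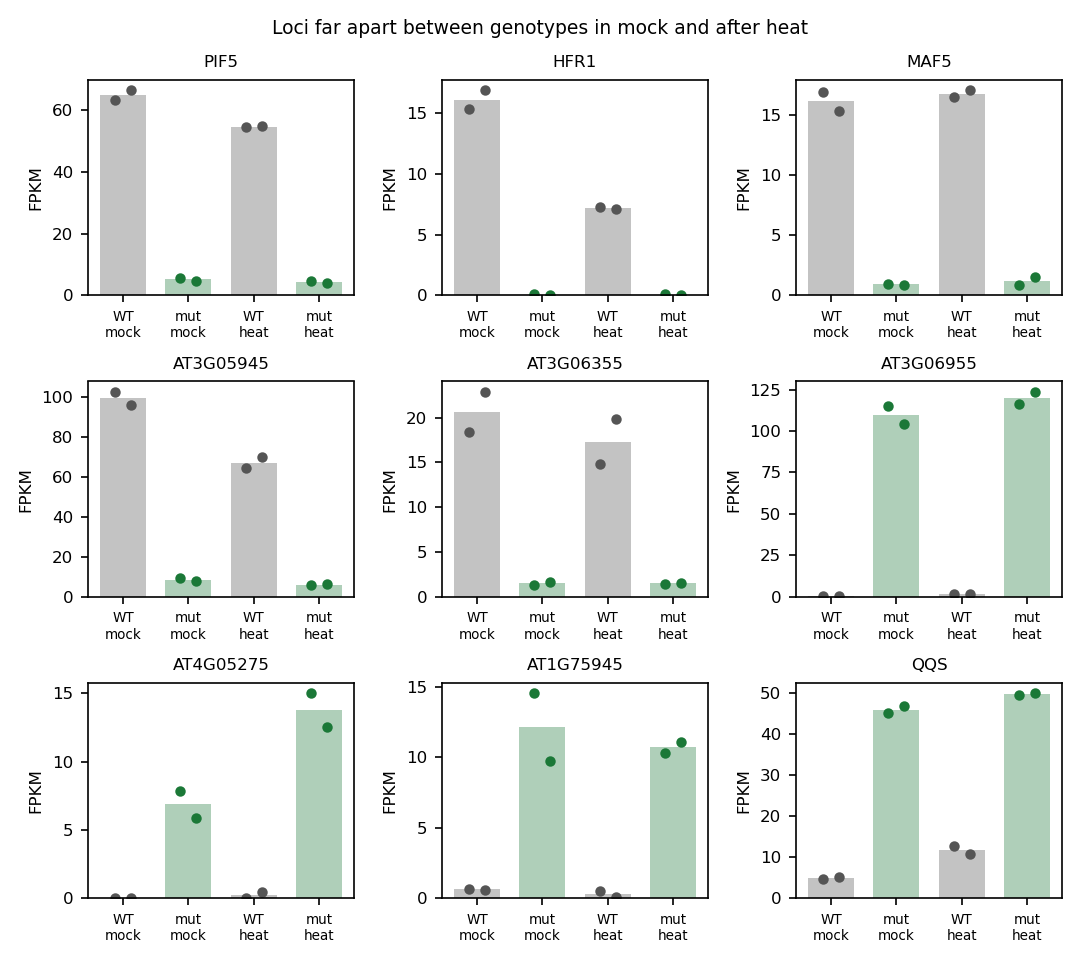
FPKM (vertical axes, each from 0) of 9 loci with large differences between wild type (WT, grey) and mutant (mut, green) under mock and after heat; points are libraries and bars their mean. In each panel both mutant groups lie on the same side of both wild-type groups; QQS, at 44.9 and 46.7 FPKM in the mutant under mock, is shown beside the loci that passed 4-fold in both conditions.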

How the data were processed

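Directional libraries were made from DNase-treated total RNA that a phenol-based reagent had extracted, per the labels' protocols. The authors deposited FPKM in 1 table of 34354 rows with a column per library. TopHat, TopHat2, edgeR and the build TAIR10 are listed per the submitters' processing notes, with no version or role. How reads were counted, with or without strand, is not given in the sources used here; overlapping and antisense genes may therefore share reads. FPKM are scaled to library totals, so abundant genes that move shift the others. Row identifiers matched 32548 loci of TAIR10.1, used for symbols, lengths and sequence.

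FPKM steps gave whole reads, within 0.1 read, for 100.0% of 23543 rows above 0, and with them the depth. Replicates were further apart than counting error alone gives (chi-square averaging 5.54 a gene in wild-type mock, 5.12 in mutant mock, 2.23 in wild-type heat and 2.14 in mutant heat), so none was treated as a library deposited again. This does not show that they came from separate plants. Groups follow the sample titles. FPKM are no counts, and the test was limma 3.58.1 in R 4.3.3 on log2(FPKM + 1) (group means over 8 libraries, 4 residual degrees of freedom, eBayes with an intensity trend, two-sided). Alternative settings were a smaller pseudocount, other filters and scalings, a block for replicate number, fewer libraries, no trend, library weights, limma-voom on recovered reads and a fold threshold. Of 1072 entries in 36 gene lists 25 were left out as unresolved, and 860 of 1003 loci were measured.

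The comparison, its gene lists and the naming rule below were chosen with earlier results of these data known. Named genes are PIF4, PIF5 and passing members of the PIF and shade lists, up to 5 passing members of each other list by smallest p (where none passed, 2 given as values) and, beyond the lists, the 12 largest changes each way with a symbol, separated libraries and at least 5 FPKM in the higher group, with 5 loci each side of PIF4 and PIF5. Figures were drawn with matplotlib 3.10.9.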

Additional observations from a re-analysis of the deposited data

Results flagged for a closer look

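Of 180 named genes, 147 had a called interaction of genotype and heat, and 53 of them had called differences of opposite sign under mock and after heat. Over all genes tested the interaction was called for 31.9%; most named genes were chosen for small p or large differences under mock, and the mock difference enters the interaction, so the share among them is no result. The 30 with an interaction of at least 2-fold are given here, and the other 23 had smaller interactions. The interaction tests whether the 2 differences differ, not whether they reverse. These genes were kept for called differences of opposite sign, so its call is no separate support for a turn. Values in the lists below are the difference after heat minus the difference under mock on the log2 scale. Limma's adjusted p ran from 9.6e-10 to 8.0e-05 over these genes. The difference after heat itself was small for some, such as BGL2 (-0.19), ADR1 (-0.24), HAT1 (0.25) and EXLA1 (0.28).

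Genes that were higher in the unstressed mutant and lower in the heated one were CYP71A12 (-4.12), SAG13 (-4.03), AOX1D (-3.52), PR1 (-3.45), LTP3 (-3.28), CHI (-3.08), AACT1 (-2.88), CAX3 (-2.73), PCR2 (-2.73), GPT2 (-2.73), PAD3 (-2.50), GSTU4 (-2.20), AIG1 (-2.12), BCB (-2.08), GSTF6 (-1.89), BGL2 (-1.78), HSFB1 (-1.68), GSTF7 (-1.42), MAM3 (-1.20) and ADR1 (-1.0). They include pathogenesis-related, glutathione transferase, camalexin and senescence-associated genes. The most negative was the interaction of CYP71A12, whose level in the wild type after heat was 75.3 and 69.6 FPKM against 2.08 and 2.12 FPKM without it.

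Genes that were lower in the unstressed mutant and higher in the heated one were PHI-1 (3.74), TCH4 (3.25), DREB26 (2.65), TGG2 (1.94), SHY2 (1.55), XTH6 (1.54), AXR3 (1.47), EXLA1 (1.45), TGG1 (1.22) and HAT1 (1.01). They include wall enzymes, Aux/IAA genes and the myrosinase genes. The causes of these turns were not tested.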

How the results depend on the processing

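The number of genes called under mock, 3479, stayed within 1.5 times under another pseudocount, other filters and scalings, the replicate block, fewer libraries, no trend, library weights and limma-voom on recovered reads (2514 to 4495), and was 175 with a fold of at least 2. Leaving out 1 library gave 1781 to 3212 under mock and 3171 to 3380 after heat, against 4814. With a pseudocount of 0.1 the 2-fold count under mock was 388, and with limma-voom 421. Scaling moved the share of higher calls under mock from 62.8% to 42.2% (median-of-ratios), 47.1% (quantile) and 69.1% (nuclear sum).

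Replicate numbers are shared by the groups, but deviations from group means correlated at 0.186 between the mock groups and at -0.028 to 0.089 between other pairs, and the labels do not say what a number marks. With a replicate block 3878 genes were called under mock, 5141 after heat and 5645 for the interaction, and PIF4 (-1.94) and PIF5 (-3.42) kept their values.

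Of 2669 alternative values of 178 named genes, 2610 kept direction and side of the threshold, 56 lost a call and 3 reversed. All 3 are of the gene SEP3, which did not pass (-0.0044): 0.0127 with nuclear-sum scaling, and with 1 mock library left out from -0.0482 to 0.0395 (0.0395 without the second wild-type one and 0.0244 without the second mutant one). Depth limits genes near 1 FPKM, where few reads stand behind a value (3 reads of HFR1 were worth 0.0711 to 0.125 FPKM), and with 2 libraries a group 1 library can decide a call.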

Other observations

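An unannotated transcript of the authors' own naming also differed. Novel00023 was at 0.272 and 0.422 FPKM in the wild type and 9.81 and 9.26 in the mutant under mock and at 0.610 and 0.422 FPKM in the wild type and 8.97 and 8.21 in the mutant after heat, so that it was far lower in each wild-type library in both conditions. Its position and sequence were not used here, and it was singled out after its values were seen.

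Without heat, some chaperone genes carried a replicate difference shared by both genotypes. BIP3, an endoplasmic reticulum chaperone gene, was at 2.10 and 2.81 FPKM in the wild type and 4.44 and 6.09 in the mutant, and HSC70-1, a cytosolic chaperone gene, was at 500.4 and 563 FPKM in the wild type and 627 and 700.1 in the mutant. Replicate 2 was above replicate 1 in both genotypes for each, as for BIP1, BIP2 and CIP1 in the comparison above. These genes were picked after their values were seen, and what sets the numbers apart was not tested.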
